A study of Mus musculus with 6 samples.

Results

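The matrix metalloproteinase cluster of mouse chromosome 9, which begins with Mmp13, was followed in ATAC-seq peak lists of ATDC5 cells at day 0, day 3 and day 10 of differentiation. Its members were the peaks whose summit lay on chromosome 9 from 7150000 to 7700000 (GRCm39), an interval of 550 kb with the Mmp13 start at 7272514. The 2 Day0 lists held 23 such peaks each, the 2 Day3 lists 28 each, and the 2 Day10 lists 49 and 46. Overlapping peaks of different libraries were merged, which gave 52 regions in the cluster out of 439652 over the genome. ATAC-seq marks open chromatin by the insertion of adapters with the Tn5 transposase. ATDC5 is a single mouse line labelled as pre-chondrocyte. The Day0 cultures carry the label control. The Day3 and Day10 cultures carry the label differentiation, and their medium held beta-glycerophosphate and an ascorbate phosphate. Per the labels, the 2 libraries of each day are independent biological replicates. Expression was not analysed here, so the labelled cell type could not be checked against marker genes. A region open in fewer cells and a region less open in each cell cannot be told apart in such bulk libraries.

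The genes of the cluster encode secreted zinc endopeptidases that cut proteins of the extracellular matrix. Mmp13 is a collagenase that cuts fibrillar type II collagen, and in the growth plate it is made by hypertrophic chondrocytes and osteoblasts under the transcription factor Runx2. Along the chromosome it is followed by Mmp12, a macrophage elastase, Mmp1b, Mmp3 (stromelysin), Mmp1a, Mmp10 (a second stromelysin), Mmp8, the neutrophil collagenase, Mmp27, Mmp20, the protease of tooth enamel, and Mmp7 (matrilysin). Before Mmp13 lie Dync2h1, a dynein chain of cilia, and Dcun1d5, which acts in the attachment of Nedd8 to cullins.

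Gene placement rests on a local check. The gene table at hand is on GRCm38.p6 and the peak lists are on GRCm39, so the positions were compared. Of 12 protein-coding genes in the 4 Mb before the interval, 6 had a strong summit (rank 50000 or better) within 500 bases of a start in each of the 6 libraries, as did 6 of 10 genes in the 4 Mb after it. With the starts moved by 5000 bases in either direction none of them did. Dync2h1 and Dcun1d5, inside the interval, passed as well. On the rest of chromosome 9 beyond 40 Mb only 2.1% of 720 genes passed, so the table was used for this stretch alone. It gives gene ends but no exons, and no region below is called exonic or intronic.

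The sequences just before the starts of Mmp13, Mmp10 and Mmp3 are shown because the Mmp13 and Mmp10 starts held the peaks that differed most clearly between days among the metalloproteinase starts, while Mmp3, a close relative of Mmp10, had no peak there in both libraries of any day. Each is the 250 bases upstream of the start from RefSeq, read in the direction of the gene. Capitals mark matches on either strand to TGANTCA (the AP-1 motif), TGTGGT (Runx), TATAAA (the TATA box) and AGGAAG (ETS factors).
Mmp13 (chr9:7272264-7272513, GRCm38.p6, plus strand): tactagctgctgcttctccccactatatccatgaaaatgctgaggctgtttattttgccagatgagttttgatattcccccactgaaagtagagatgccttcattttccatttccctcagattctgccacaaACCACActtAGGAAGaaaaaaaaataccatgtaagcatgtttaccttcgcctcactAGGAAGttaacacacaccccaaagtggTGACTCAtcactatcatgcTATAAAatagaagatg
Mmp10 (chr9:7502092-7502341, GRCm38.p6, plus strand): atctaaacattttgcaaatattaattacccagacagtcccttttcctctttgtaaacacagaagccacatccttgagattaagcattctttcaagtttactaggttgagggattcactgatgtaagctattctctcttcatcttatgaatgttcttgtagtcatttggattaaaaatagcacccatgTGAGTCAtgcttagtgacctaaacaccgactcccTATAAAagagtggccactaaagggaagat
Mmp3 (chr9:7445572-7445821, GRCm38.p6, plus strand): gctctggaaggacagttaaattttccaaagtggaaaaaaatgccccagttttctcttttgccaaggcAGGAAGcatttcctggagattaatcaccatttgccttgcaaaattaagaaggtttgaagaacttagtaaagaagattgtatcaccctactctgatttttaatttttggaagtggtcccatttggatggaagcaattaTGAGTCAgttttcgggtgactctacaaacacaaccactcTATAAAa

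In the Mmp13 sequence the Runx match, ACCACA on the reverse strand, lies 118 to 113 bases before the start. The AP-1 match TGACTCA lies 35 to 29 bases before it and the TATA box 16 to 11 bases before it. The Mmp10 sequence holds an AP-1 match, TGAGTCA, and a TATA box, but no Runx or ETS match. Mmp3 holds AP-1, TATA box and ETS matches. Of the 10 metalloproteinase genes of the interval, 8 had an AP-1 match before at least 1 start, against 7.8% of 27025 genes in the table, and 7 had a TATA box, against 14.3%. A Runx match was found for 4 of the 10, against 15.9%, and an ETS match for 6, against 32.3%. No 2 matches of these motifs overlapped in the sequences shown. A match describes the letters and is not a measured binding site.

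Depth and scale differed between days. The lists held 164642 and 164960 peaks on Day0, 177751 and 177111 on Day3, and 381376 and 390100 on Day10. The depth estimated from the peak values reached 1.96 times the Day0 replicate 1 value in each Day10 library and 1.11 to 1.13 times on Day3. Each value below is the authors' fold of the peak over background, unless a rank or a pileup is named. The pileup, recovered from the fold, is the number of extended reads at the summit, and a rank is the place of a peak among all peaks of its library. Not listed means that no summit passed the authors' threshold, whose lowest fold was 3.5 and 3.47 on Day0, 3.34 in each Day3 library, and 2.88 and 2.79 on Day10. No peak was narrower than 68 and 72 bases on Day10, or than 87 to 90 bases in the other libraries, and the word lysis stands in the peak names of Day3 alone. Effects of those days and of any handling specific to their libraries cannot be told apart.

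Among the 10 metalloproteinase genes, Mmp13 and Mmp10 had a summit within 500 bases of their start in both libraries of every day. Mmp20 had a weak summit there in both Day10 libraries, at a fold of 4.3 and 5.1. Mmp3 had a summit in Day0 replicate 2 alone, at a fold of 4.0 from a pileup of 6. Mmp12, Mmp1b, Mmp1a, Mmp8, Mmp27 and Mmp7 had no listed summit at any start in any library. The starts of the flanking genes were far stronger than those of the metalloproteinases. The peak at the Dync2h1 start had its summits 448 to 479 bases after the first Dcun1d5 start. Its fold was 33.2 and 34.1 on Day0, 34.5 in each Day3 library, and 35.0 and 35.3 on Day10. The inner Dcun1d5 start had 35.5 and 31.2, then 35.0 and 33.4, then 29.7 and 34.9, and its days overlapped. It was also the widest peak of the cluster in every library, at 927 to 1100 bases.

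**Figure D1:**
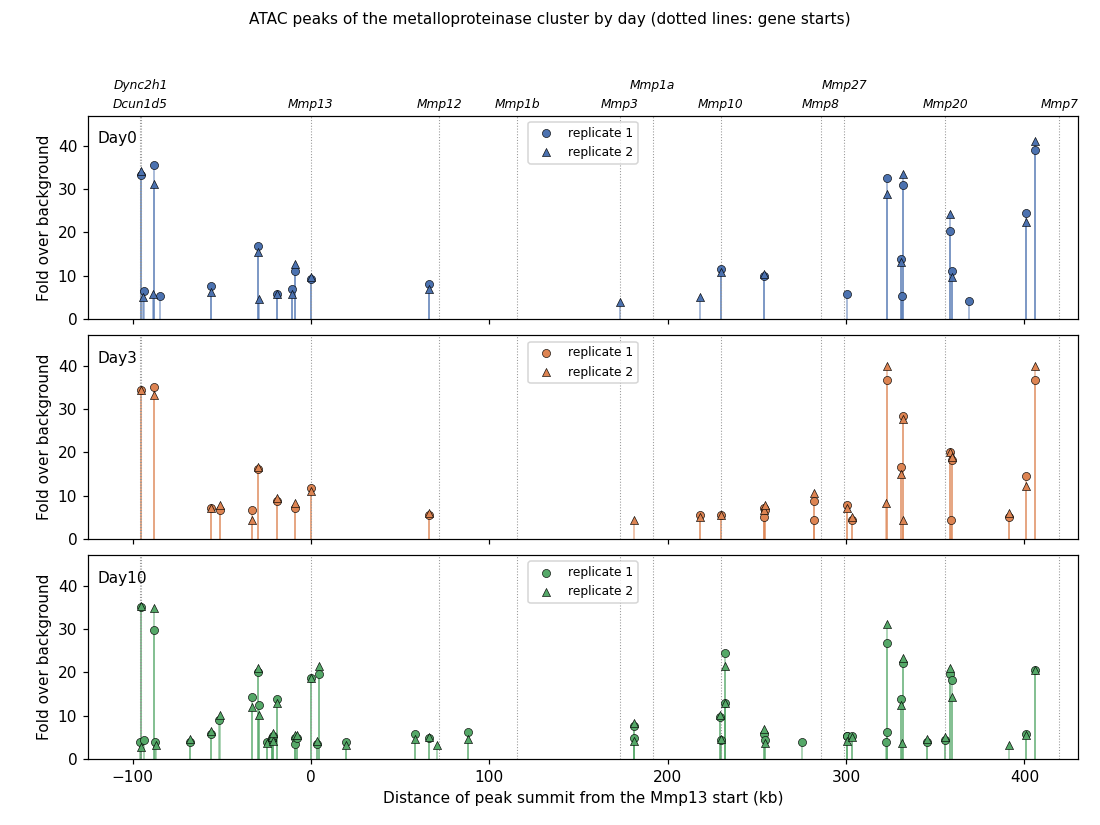
Authors' fold over background (linear vertical axis) of every listed peak of the cluster against the distance of its summit from the Mmp13 start in kb, with a panel for each day; circles are replicate 1, triangles replicate 2, and dotted lines gene starts. The stretch from Mmp12 to Mmp1a holds no peak above a fold of 8.4 on any day, while new peaks stand beside Mmp13 and Mmp10 on Day10.

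The peak at the Mmp13 start had a higher fold at each later day. It was 9.3 and 9.8 on Day0, 11.7 and 11.1 on Day3, and 18.7 and 18.6 on Day10. The libraries of each day lay close together and no 2 days overlapped. How often the fold separates all 3 days was not counted. On the rank scale, separation of Day10 from Day0 is common. Ranks in both Day10 libraries were better than in both Day0 libraries for 31.1% of the regions listed in all 6 libraries. In the cluster this held for 5 of 16 such regions. Summits lay 18 to 51 bases upstream of the start as placed, near the AP-1 match and the TATA box printed above. The check of gene placement allowed 500 bases, so agreement of the builds at this finer scale was not tested. The pileup was 15 and 16 on Day0, 20 and 19 on Day3, and 38 and 39 on Day10, so a few reads carry the step on Day3. The mean fold was 1.95 times as high on Day10 as on Day0, while the median of this ratio over the 97076 regions listed in all libraries was 0.89. Divided by the background of its library, the pileup was 1.61 times as high on Day10 as on Day0, against a median of 0.71. The ranks were 88089 and 84333 on Day0, 63828 and 67461 on Day3, and 46235 and 47310 on Day10. Among regions listed in all 6 libraries, 9.51% had a better rank at each later day without overlap. A two-sided exact permutation test of the order of days, chosen after these values were seen, gave p = 0.0222 for Mmp13, the smallest that the 90 assignments of 6 libraries to 3 days allow. Adjusted over the 97076 regions by the Benjamini-Hochberg method it was 0.0744, which does not pass 0.05. None of these 97076 regions passed, while 29.9% of them had an unadjusted exact permutation p under 0.05. Regions not listed in all 6 libraries were not tested.

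Inside Mmp13, 4.5 kb after its start, a region from 7276828 to 7277590 was listed on Day10 alone. It was absent from all Day0 and Day3 lists and had a fold of 19.7 and 21.4 on Day10, from pileups of 40 and 45. At Day10 it was as strong as the start itself. Its ranks, 42514 and 37528, made it a gained region against both earlier days. A gained window ranked 50000 or better in both libraries of the later day, and worse than 100000 or unlisted in both of the earlier day. A weak region 3.4 kb after the start, at a fold of 3.4 and 4.2, and another 19.8 kb after it, at 3.8 and 3.3, were also listed on Day10 alone.

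In the 50 kb upstream of Mmp13 the regions did not move together. The strongest of these lay 29.6 kb before the start, from 7242718 to 7243153, with a fold of 16.9 and 15.6 on Day0, 16.1 and 16.7 on Day3, and 20.1 and 20.9 on Day10. Its order depends on the scale: ranks were better at each later day, but the pileup over background was 39.1 and 35.6 on Day0, 35.1 and 36.3 on Day3, and 37.8 and 38.2 on Day10, with the days overlapping. Beside it, 29.1 kb before the start, a second region was listed in Day0 replicate 2 alone, at 4.6, and then in both Day10 libraries, at 12.5 and 10.2. The region 32.9 kb before the start was not listed on Day0, had 6.7 and 4.4 on Day3, and had 14.4 and 12.1 on Day10.

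The region 19.1 kb before the start, from 7253316 to 7253556, had a fold of 5.8 in both Day0 libraries, 8.9 and 9.5 on Day3, and 13.9 and 13.0 on Day10. The days did not overlap on any of the 3 scales (fold, rank and pileup over background), and its mean fold was 2.32 times as high on Day10 as on Day0. It lies 2.0 kb before the start of the lncRNA gene Gm31639, which had no listed summit at its own start in any library. Between 24.5 and 21.4 kb before the Mmp13 start, 4 weak regions were listed on Day10 alone, with folds from 3.7 to 6.0.

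Within Gm31639, nearer to Mmp13, the regions 8.9 and 10.7 kb before the Mmp13 start went the opposite way. The region 8.9 kb before the Mmp13 start, from 7263344 to 7263743, had a fold of 11.1 and 12.7 on Day0, 7.2 and 8.3 on Day3, and 4.8 and 5.6 on Day10. The 3 days did not overlap, and on the scale of pileup over background its mean on Day10 was 0.33 times that on Day0, against the median of 0.71 over all regions. The region 10.7 kb before the start had 7.0 and 5.8 on Day0 and was listed on no later day. A region 7.7 kb before the start was listed on Day10 alone, at 4.8 and 5.6. Distal elements upstream of Mmp13 bound by Runx2, the vitamin D receptor and C/EBP factors are known from mouse osteoblast cells. Binding was not analysed here.

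**Figure D2:**
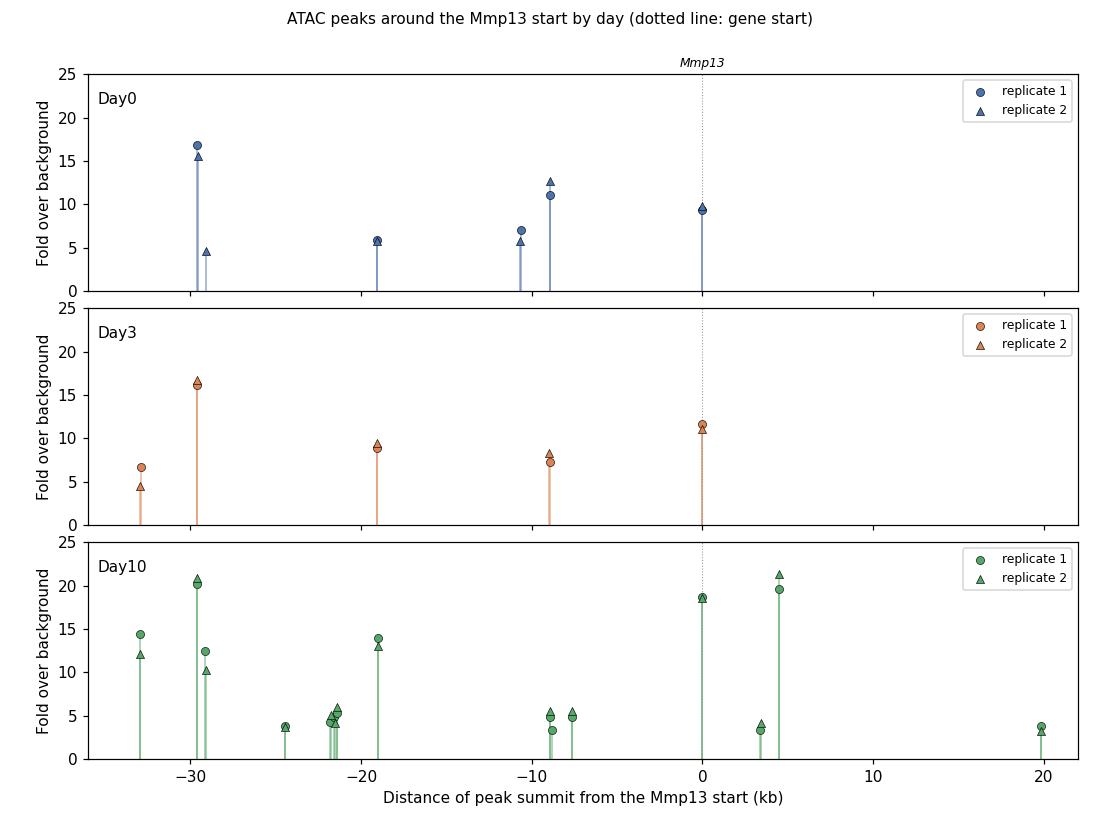
Authors' fold over background of the peaks near the Mmp13 start (horizontal axis in kb from the start, along the gene), with Day0 at the top, Day3 in the middle and Day10 at the bottom; circles are replicate 1 and triangles replicate 2. The start and the region 19.1 kb before it are higher on each later day, the region 8.9 kb before it is lower, and the region 4.5 kb after it is drawn on Day10 alone.

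Mmp10, which encodes a stromelysin that cuts proteoglycans and other matrix proteins, showed another pattern. Its start had a fold of 11.7 and 11.0 on Day0, 5.6 in each Day3 library, and 4.3 and 4.6 on Day10. Pileups were 19 and 18 on Day0, 9 and 9 on Day3, and 8 and 9 on Day10. No 2 days overlapped in fold, but the pileups of Day3 and Day10 did. The mean fold was 0.39 times as high on Day10 as on Day0, against a median of 0.89 over the regions listed in all 6 libraries. Of those regions, 51.9% had worse ranks on Day10 than on Day0 without overlap, and 20.3% had worse ranks at each later day. Within the gene, 2.5 kb after that start, a region from 7504689 to 7505149 was not listed on Day0 or Day3 and had 24.5 and 21.4 on Day10. It ranked 28034 and 37529 there and was the other gained window of the cluster. The region 2.2 kb after the start had 13.0 in both Day10 libraries, and one 0.7 kb before it had 9.6 and 10.2. Both were listed on Day10 alone. On Day10 these 3 regions beside the Mmp10 start each had a higher fold than the start itself.

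The other stromelysin gene, Mmp3, had its clearest region 7.6 kb after its start. It was listed in Day3 replicate 2 alone among the earlier libraries, at 4.4, and in both Day10 libraries, at 7.7 and 8.4. A region 8.0 kb after the start had 4.8 and 4.2 on Day10 alone. Mmp12, Mmp1b, Mmp1a, Mmp8 and Mmp7 had no region inside their bounds. The nearest to Mmp12, 1.0 kb before its start, was listed in Day10 replicate 2 alone, at 3.3. The nearest that every library listed lay 5.7 kb before the Mmp12 start and had 8.2 and 6.9 on Day0, 5.6 and 6.1 on Day3, and 4.8 and 5.1 on Day10, without overlap between days. Before Mmp8, at 3.9 kb from its start, a region from 7554486 to 7554647 was listed on Day3 alone, at a fold of 8.9 and 10.6. Such regions were rare, at 1.04% of all merged regions, and this was the only cluster region of its kind. A region between Mmp10 and Mmp8, 24.1 kb after the Mmp10 start, had 9.9 and 10.4 on Day0, 7.2 and 7.8 on Day3, and 5.8 and 7.0 on Day10.

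**Figure D3:**
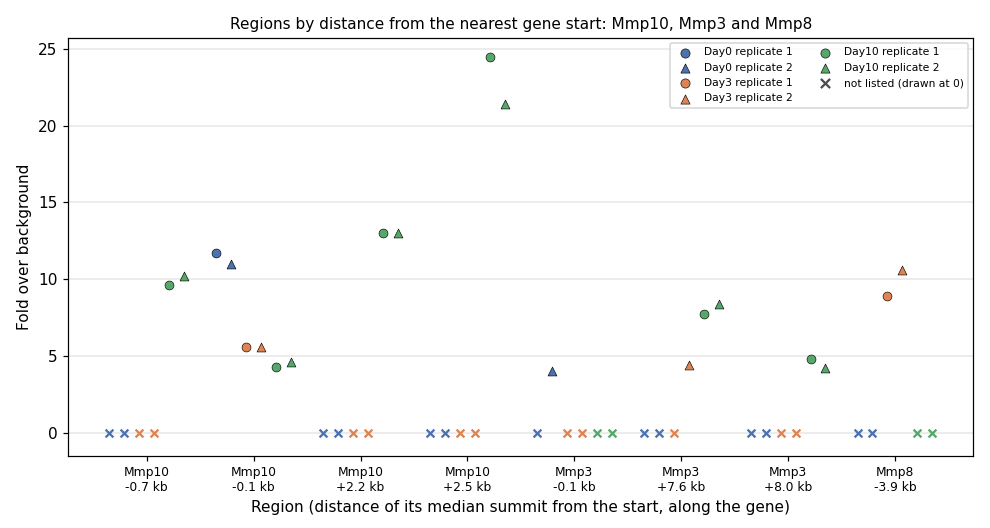
Authors' fold over background (vertical axis) of regions near Mmp10, Mmp3 and Mmp8, labelled by the gene and the distance of the median summit from its start; colours are days, circles replicate 1, triangles replicate 2, and crosses at 0 libraries without a listed peak. At the Mmp10 start both Day0 libraries lie above the others, while the region 2.5 kb after it has values on Day10 alone, 24.5 and 21.4.

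The last part of the cluster held its strongest open regions away from the gene starts that were placed. Between Mmp27 and Mmp20, the region from 7594816 to 7595676 had 32.6 and 28.9 on Day0, 36.7 and 40.0 on Day3, and 26.9 and 31.1 on Day10. The days had no common order. The region from 7603422 to 7604720 had 30.9 and 33.5 on Day0, 28.4 and 27.8 on Day3, and 22.1 and 23.2 on Day10. Both regions lie inside the lncRNA gene Gm31751. Inside Mmp20, 2.5 kb after its start, the fold was 20.4 and 24.3 on Day0, 20.0 in each Day3 library, and 19.7 and 20.9 on Day10, with overlap between days. A region 3.5 kb after the Mmp20 start had 11.1 and 9.8 on Day0, 18.3 and 18.9 on Day3, and 18.2 and 14.4 on Day10.

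Near the end of Mmp20, from 7672968 to 7673325, lay the single region of the cluster called lost on Day10 against Day0. Its fold was 24.5 and 22.5 on Day0, 14.5 and 12.2 on Day3, and 5.8 and 5.6 on Day10. The days did not overlap on any scale, and the mean fold on Day10 was 0.24 times that on Day0. About 5 kb further on, from 7678041 to 7679039, the region with the highest fold of the cluster on Day0 had 39.0 and 41.0, then 36.7 and 40.0 on Day3, and 20.6 and 20.5 on Day10. Both Day10 values lay well below all the others. This region and the lost one lie inside the lncRNA gene AV064505, whose start was not placed. The pileups of the region from 7678041 to 7679039 were 66 and 70 on Day0, 65 and 71 on Day3, and 42 and 43 on Day10. The highest pileups of any peak in those libraries were 162 and 166, 171 and 174, and 136 and 144. A cause of the lower Day10 values was not tested.

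**Figure D4:**
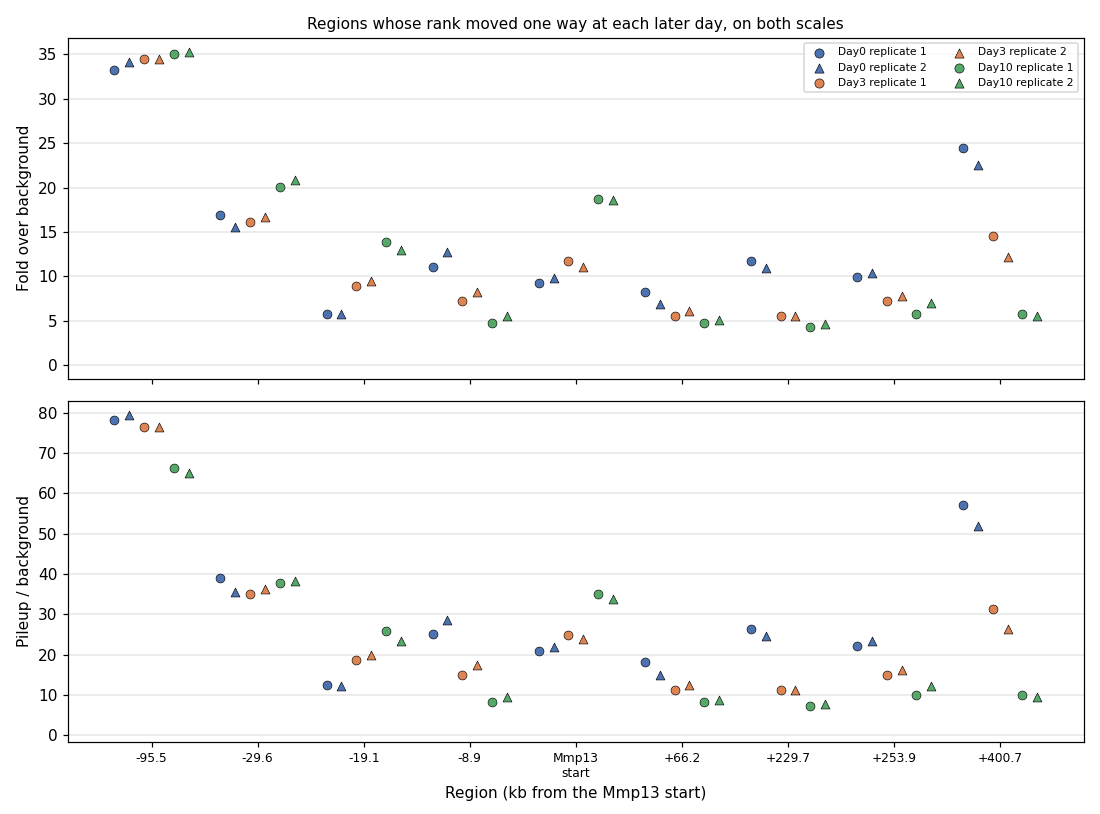
The 9 regions listed in all 6 libraries whose rank moved the same way at both steps, by distance from the Mmp13 start in kb; the upper panel gives the authors' fold over background and the lower panel the recovered pileup divided by the background of its library, with colours for days, circles for replicate 1 and triangles for replicate 2. The Mmp13 start and the region 19.1 kb before it are higher on Day10 in both panels, the regions 95.5 and 29.6 kb before it in the upper panel alone, and the 5 other regions are lower in both.

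Over the cluster, 16 of the 52 regions were listed in all 6 libraries. Of these, 4 had a better rank at each later day without overlap, against 9.51% of all such regions, and 5 had a worse rank, against 20.3%. The 4 were the Mmp13 start, the regions 19.1 and 29.6 kb before it, and the Dync2h1 start. Of the 4, 2 were also higher on Day10 than on Day0 in pileup over background. At the Dync2h1 start that ratio was lower on Day10, at 66.4 and 65.1, than on Day0, at 78.2 and 79.4. The 5 were lower on Day10 than on Day0 on every scale, and included the Mmp10 start and the region near the end of Mmp20. A rank is a place in a library's own list, and the Day10 lists were the longest. The Mmp10 start ranked 131303 and 131659 on Day3, at pileups of 9 and 9. On Day10 it ranked 300725 and 261529, at pileups of 8 and 9. By pairs of days, the Day10 ranks were better than those of Day0 without overlap in 5 of the 16 (31.1% of all) and worse in 8 (51.9%). Day10 against Day3 gave 4 better (23.8% of all) and 11 worse (59.5%), and Day3 against Day0 gave 9 better (42.9%) and 5 worse (33.1%). Each of the 9 had the same exact permutation p of 0.0222 and adjusted p of 0.0744 over the regions listed in all 6 libraries.

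The calls by rank were few. Of 13 windows of 501 bases around the strong summits of the cluster, 2 were gained on Day10 against Day0, where 12.0% of all 78665 windows were, 1 was lost, against 10.0%, and 6 were kept, against 34.9%. At Day10 against Day3, 2 were gained, against 9.10%, 0 were lost, against 4.59%, and 7 were kept, against 37.9%. At Day3 against Day0, 0 were gained and 0 lost, against 1.17% and 1.73%, and 6 were kept, against 45.6%. These shares lie near the background, so the 2 gained windows are described for where they lie, in Mmp13 and Mmp10, and not for their number. With stricter ranks of 25000 and 50000 neither was gained.

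More regions were listed on Day10 across the cluster, as across the genome. Both libraries listed 18 of the 52 regions on Day0, 23 on Day3 and 39 on Day10, which is 34.6%, 44.2% and 75.0%, against 30.4%, 31.2% and 68.3% of all regions. With a -log10 q of 5 or more the counts were 18, 19 and 23. The shares of all regions with that q were not computed, so these counts are not read as particular to the cluster. Listed on Day10 alone were 17 regions of the cluster, where 35.0% of all regions were. With a -log10 q of 5 or more on Day10 and no peak on Day0 there were 9, where the genome had 19.1%. In the other direction, 1 region was listed on Day0 with that q and not on Day10, against 3.98%. By the same rule, Day10 had 6 new regions against Day3, where the genome had 16.0%, and 1 region of Day3 was gone, against 1.37%. Day3 had 2 new regions against Day0 (2.39% of all) and had lost 2 (3.48%).

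The 50 kb on either side of the Mmp13 start held 15 of the 52 regions. Both libraries listed 5 of these 15 on Day0, 5 on Day3 and 14 on Day10, where they listed 30.4%, 31.2% and 68.3% of all regions. With a -log10 q of 5 or more the counts near Mmp13 were 5, 4 and 7. In the rest of the cluster they listed 13 of 37 on Day0, 18 on Day3 and 25 on Day10, and 13, 15 and 16 with that q. Here too, no share of all regions with that q was computed. By the rule with a -log10 q of 5, 3 of 15 regions near Mmp13 and 6 of 37 in the rest were new on Day10 against Day0. The difference between these shares was not tested. The 50000 strongest peaks covered 5928 and 6001 bases of the interval on Day10 and 4681 and 5019 bases on Day0. The exact permutation p of 0.333 (two-sided, 2 against 2 libraries) is the smallest that this design allows, and the Day3 libraries, with 5671 and 5089 bases, lay between. For the 25000 strongest peaks the order turned, and the Day10 mean minus that of Day0 was -1589 bases.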

How the data were processed

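The deposited data are narrowPeak lists, 1 per library and not pooled, for 6 libraries in 3 days; groups and replicate numbers came from the titles. Per the submitters' processing notes, Trim Galore was used and the build is mm10, but scaffold names in the deposited lists belong to GRCm39, as which positions are read. The aligner and peak caller are not named in the sources used here, nor are their settings. The authors' fold is a ratio over background. The deposited -log10 p-value and -log10 q-value are the authors' own, and the deposited integer score follows the latter and was not used further.

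Peaks on chromosomes 1 to 19, X and Y were ranked within each library by -log10 p, then fold, then position. Equal pileups tie, so neighbouring ranks can rest on position. From the spacing of the folds, each was (pileup + 1) / (background + 1), and 100.0% of pileups were whole within 0.01. Regions were peaks of any library merged on 1 base of overlap, each with its best summit per library. Windows were 250 bases on either side of the summits of the 50000 strongest peaks, the better rank taking precedence. The trend test was a Jonckheere statistic over all assignments of libraries to days. The calling and trend steps were tested on simulated data. Named were the metalloproteinase starts, the best 10 regions of each day, the called windows and the widest peaks; further regions near Mmp13, Mmp10, Mmp12, Mmp3 and Mmp8 were named after their values were seen. The members and lists were chosen with earlier results of these data known. Metalloproteinase, Timp and Adamts genes elsewhere in the genome were not analysed here, since no annotation of the build was used. Python 3.11.15, numpy 2.4.6 and pandas 2.3.3 were used.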

Additional observations from a re-analysis of the deposited data

How the results depend on the processing

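Of the alternative values computed for the counts, the covered bases and the order of days, 126 stayed within 1.5 times the reported count or kept their direction, 15 moved further and 2 reversed. The 126 include the exact permutation p for the order of days at the Mmp13 start, although it is not a count and it crossed 0.05. It was 0.0222 as reported and 0.0556 with the replicate number as a block. Without a gap between ranks, Day3 against Day0 gave 2 gained and 1 lost windows in place of 0 and 0, and Day10 against Day0 gave 4 gained in place of 2. With the stricter ranks of 25000 and 50000, no window was gained at Day10 against either day (0 and 0) or lost against Day0 (0), and 2 and 3 windows were kept against Day0 and Day3; the windows of Mmp13 and Mmp10 rank between 28034 and 42514, outside that limit. With a -log10 q of 10 in place of ranks, 11 windows were kept at Day3 and 10 at Day10 against Day0, and 0 were lost, since the region near the end of Mmp20 stays listed at Day10. In an interval wider by 100 kb on both sides, 2 windows were lost at Day10 against Day0. The number of regions listed in both libraries was 23 at Day10 with a -log10 q of 5, and 12 at Day3 and 18 at Day10 with 10. The covered bases turned for the 25000 strongest peaks: the Day10 mean minus that of Day0 was -1589 and minus that of Day3 -1742.5, against 1114.5 and 584.5 for 50000; the cause was not tested. Leaving out any single library moved no count by over 1.5 times and turned no difference in covered bases. The Day3 minus Day0 difference of 530 bases was 239 without Day3 replicate 1 and 821 without Day3 replicate 2, and that of Day10 minus Day3 was 293.5 without Day3 replicate 2.

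The replicate numbers are not said to mark a shared culture or day, and with 2 libraries a day they cannot be shown to pair the samples. With the replicate number as a block, chosen after seeing the data, the exact permutation p was 0.5 for each difference in covered bases, the smallest that 2 pairs allow. For the order of days at the Mmp13 start it was 0.0556, the smallest that the 36 assignments of days within replicate numbers allow. The other counts come from no test. Depth limits the weak regions: a pileup of 6 to 9 lies at the edge of listing, and a weak region not listed on another day can lie just under the threshold there.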
